A study of Mus musculus with 8 samples.

Results

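Brown fat genes were followed in the adipose fraction of mouse back skin after the hair had been plucked. The set held 10 genes, Ucp1, Cidea, Dio2, Slc27a2, Ppargc1a, Prdm16, Zic1, Lhx8, Cox7a1 and Cox8b, out of 34790 gene names on the array. They were taken by gene name, all were on the array, and each was well above background on at least 1 array. The set was chosen by its values on these same arrays, above all the difference of day 50 from the shaved control, so the differences given below describe the genes and test nothing. Of the 10, 8 were treated as fat-specific, and 2, Cox7a1 and Cox8b, were kept apart because skeletal muscle also expresses them.

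The animals were female C57 BL/6 mice whose back hair follicles were all in telogen, the resting stage of the hair cycle. The 7 plucked groups were sampled 12 hours after hair had been pulled out with wax and then on days 1, 2, 4, 6, 10 and 50, and the control had been shaved. The labels list the shaved mice and those of the first 4 days as 10 weeks old, those of days 6 and 10 as 11 weeks old and those of day 50 as 17 weeks old, so that on day 50 time after plucking and age cannot be told apart; the treatment protocol names a lower age for the mice. Each group was 1 array, with no replicate, and the labels do not say how many mice gave the RNA. Fat was the labelled tissue and the cells were lysed differentially, while the design text calls the material adipose and dermal tissue from outside the follicle. All 18 mature adipocyte markers listed for the check, Adipoq, Plin1 and Fabp4 among them, were well above background on all 8 arrays, but so were all 20 skeletal muscle markers, and markers of sebaceous gland and hair were measured too. In such a mixture a lower value can mean fewer cells of a type or less RNA per cell, which cannot be told apart.

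Brown fat burns fuel to make heat. Its signature protein, UCP1, lets protons back across the inner mitochondrial membrane without making ATP, and beige adipocytes, which arise inside white fat depots, can do the same. Noradrenaline from sympathetic nerves acts through beta-adrenergic receptors and cyclic AMP to release fatty acids and to induce Ucp1, and thyroid hormone, activated inside the cell by the deiodinase DIO2, strengthens that response. The fat under mouse skin is usually classed as white, and it thickens and thins with the hair cycle.

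The sequences shown first are the array's probe for Ucp1, the gene with the widest change of the set, and its probe for Cox7a1, which was among the brightest. The Ucp1 probe lies on the plus strand at chr8:85821788-85821847 in mm9. The Cox7a1 probe lies on the plus strand at chr7:30970337-30970948 in mm9, where its 60 bases are spread over 612 bases of genome, so it reads spliced RNA. Both are in lower case throughout, since no base is singled out.
Ucp1 probe: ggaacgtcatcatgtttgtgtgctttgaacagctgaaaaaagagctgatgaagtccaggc
Cox7a1 probe: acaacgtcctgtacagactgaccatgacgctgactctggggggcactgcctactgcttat

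The promoters of Ucp1 and Dio2 are shown because cyclic AMP is a known inducer of both genes. Each runs from 250 bases before to 50 bases after the RefSeq start in GRCm38.p6, Ucp1 on the plus strand at chr8:83290098-83290397 and Dio2 on the minus strand at chr12:90738989-90739288. Capitals mark TGACG, the half-site of the cyclic AMP response element, in Ucp1, and the full element TGACGTCA and the TATA box TATAAA in Dio2.
Ucp1 promoter: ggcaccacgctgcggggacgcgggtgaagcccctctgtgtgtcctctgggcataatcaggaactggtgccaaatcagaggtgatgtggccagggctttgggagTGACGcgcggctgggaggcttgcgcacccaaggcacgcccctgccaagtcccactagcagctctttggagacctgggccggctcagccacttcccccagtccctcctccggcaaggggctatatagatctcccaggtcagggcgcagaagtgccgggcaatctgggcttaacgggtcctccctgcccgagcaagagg
Dio2 promoter: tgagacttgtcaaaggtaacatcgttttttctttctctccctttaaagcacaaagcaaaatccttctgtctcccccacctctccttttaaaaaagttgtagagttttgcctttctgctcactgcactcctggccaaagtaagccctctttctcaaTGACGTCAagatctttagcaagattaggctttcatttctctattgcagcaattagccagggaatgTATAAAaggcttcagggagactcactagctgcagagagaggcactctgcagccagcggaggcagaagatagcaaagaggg

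The Ucp1 window held 1 TGACG, beginning at -147 relative to the start, and 1 AGGTCA, the half-site of several nuclear receptors, beginning at -14. The Dio2 window held TGACGTCA beginning at -95, which contains TGACG on both strands, and TATAAA beginning at -30. Of 32851 RefSeq promoters of the same length, searched on both strands, 20.8% held TGACG, 16.3% AGGTCA, 13.6% TATAAA and 1.79% TGACGTCA. The RefSeq table had an entry for 9 of the 10 genes, all but Cidea. Among them Slc27a2 also held AGGTCA on the opposite strand, Ppargc1a held TGACG on the opposite strand and Cox8b held TATAAA. Prdm16, Zic1, Lhx8 and Cox7a1 held none of these letters, and none of the 9 held TCAAGGTCA, which binds estrogen-related receptors and is in 0.423% of promoters, or the PPAR response element, AGGTCA repeated after any 1 base, which is in 0.0396%. A match is a string of letters and not a measured binding site. Sequence outside these windows was not searched, so the absence of an element holds for the windows only.

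Levels below are log2 processed signals from which the 75th percentile of the same array was subtracted, so that 0 is that percentile, and differences are of such levels against the shaved control. A level says nothing about 1 gene against another, because probes differ in brightness. The only measures of error are technical. The median SD between spots of the same probe was 0.06 to 0.10 on the log2 scale, and that between probes of the same gene, in their difference from the control, was 0.15 to 0.18. A gene is counted below where it was at least 2-fold apart from the shaved control and well above background on the brighter of both arrays.

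On day 50, 5 of the 10 genes were at least 2-fold higher than in shaved skin, Ucp1, Cidea, Dio2, Slc27a2 and Cox7a1, against 2.71% of 28464 genes measured, and none was at least 2-fold lower, against 4.4%. The median difference of the 10 was 1.05, beside -0.01 over all genes measured. Cox7a1, at 1.11, lay just inside the 2-fold line and Cox8b, at 0.98, just outside. Before day 50 the counts were small. At 12 hours, 1 gene was higher, Dio2, against 3.86% of all genes, and 1 lower, Ucp1, against 3.33%. The same genes were counted on day 1, against 2.67% higher and 3.21% lower. On day 2 Cidea was higher, against 2.56%, and Ucp1 lower, against 3.57%. On day 4 Dio2 was higher, against 5.86%, and Ucp1 and Lhx8 lower, against 6.58%. On day 6 none was higher, against 4.18%, and Cidea was lower, against 2.09%. On day 10 none was higher, against 3.75%, and Ucp1 and Cidea were lower, against 2.29%. All 7 comparisons share the 1 shaved array, so its own error enters each of them.

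**Figure D1:**
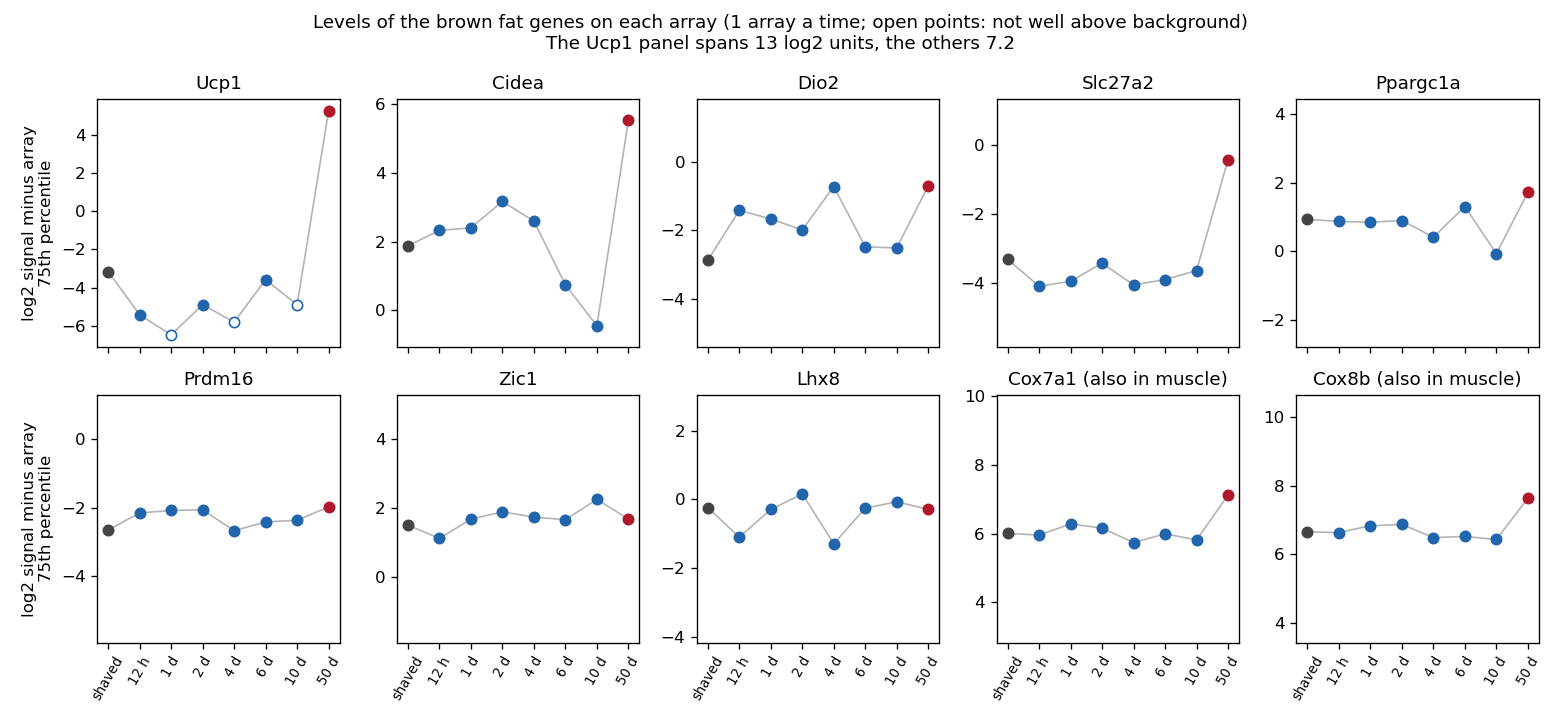
Level of each of the 10 brown fat genes on the 8 arrays, as log2 processed signal relative to the 75th percentile of its array, with the times in order from the shaved control to day 50. Each point is 1 array, the times are equally spaced and the lines only join arrays in order. Open points were not well above background. Ucp1 is at 5.26 on day 50 and at or below -3.16 elsewhere, while Zic1 and Lhx8 on day 50 lie inside the range of their other arrays.

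Ucp1 was dim on every array but the last. Its level was -3.16 in shaved skin, -5.43 at 12 hours, -6.48 on day 1, -4.90 on day 2, -5.81 on day 4, -3.59 on day 6, -4.90 on day 10 and 5.26 on day 50. The day 50 array alone was high, at a processed signal of 19213 units, against 67.1 units in shaved skin and 79.6 units at most on the other plucked arrays. The difference of day 50 from the control was 8.42, or 343-fold. On this scale shaved skin was the highest of the remaining arrays, so the gap to the highest of the other 7 was the same 8.42, first among 27267 genes well above background on day 50. Only 0.482% of 30697 genes stood at least 2-fold above all 7 other arrays on day 50, and in this set Ucp1, Slc27a2 and Cidea did, at ranks 1, 7 and 14.

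Among the 7 arrays other than day 50 the Ucp1 level spanned 3.32, and 3 of them, on day 1, day 4 and day 10, were not well above background. There the gene had only a bound, at least 5.96-fold lower than in shaved skin on day 1, at least 4.60-fold on day 4 and at least 2.84-fold on day 10. At 12 hours and day 2, where it was above background, it was 4.80-fold and 3.33-fold lower than in shaved skin. These differences lie between dim spots of 6.2 to 79.6 units, and the scanner software's own error on the day 1 signal was 63.6% of it. With another background correction, normexp, the day 1, day 2 and day 10 differences shrank to -0.94, -0.73 and -0.67, under 2-fold, and those of 12 hours and day 4 to -1.08 and -1.03, just past it.

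Cidea encodes a lipid droplet protein that is abundant in brown fat and also made in sebaceous glands. Its level was 1.88 in shaved skin, 2.32 at 12 hours, 2.40 on day 1, 3.17 on day 2, 2.59 on day 4, 0.74 on day 6, -0.45 on day 10 and 5.53 on day 50. It was thus 2.45-fold higher than in shaved skin on day 2, 2.20-fold lower on day 6, 5.02-fold lower on day 10 and 12.6-fold higher on day 50. The day 50 array stood 2.36, or 5.13-fold, above the next, which was day 2.

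Up to day 10, the median of sebaceous cell markers differed from shaved skin in the same direction as Cidea, though from day 2 the sizes differed. The median of 12 sebocyte markers, leaving out Cidea and Elovl3, differed from shaved skin by 0.34 at 12 hours, 0.53 on day 1, 0.57 on day 2, 1.00 on day 4, -0.42 on day 6 and -1.19 on day 10, and Cidea by 0.45, 0.52, 1.29, 0.72, -1.14 and -2.33 at those times. Cidea minus the sebocyte median was 0.73 on day 2, -0.28 on day 4, -0.72 on day 6 and -1.14 on day 10. From day 2 to day 4 the median rose while Cidea fell. On day 50 the directions parted, the sebocyte median being -0.17 and Cidea 3.65. None of those 12 sebocyte markers was at least 2-fold higher on day 50. On day 10, 7 of the 14 markers with Cidea and Elovl3 included were at least 2-fold lower. The fatty alcohol enzyme Far2 and the acyltransferase Dgat2l6 were not well above background on day 10, and were at least 11.7-fold and at least 4.42-fold lower than in shaved skin. Others were the wax and lipid enzymes Elovl4 at -3.11 and Awat1 at -2.49 and the duct keratin Krt79 at -2.57. The median of 18 mature adipocyte markers was -0.17 at 12 hours, 0.35 on day 1, 0.36 on day 2 and -0.61 on day 4. It was -0.78 on day 6, -0.61 on day 10 and 0.23 on day 50. Its direction was that of Cidea at all these times but 12 hours and day 4. What part sebaceous cells had in the Cidea values was not tested.

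Dio2, which turns thyroxine into the active hormone T3, had its 2 highest values on day 4 and day 50. Its level was -2.87 in shaved skin, -1.42 at 12 hours, -1.67 on day 1, -1.99 on day 2, -0.73 on day 4, -2.48 on day 6, -2.51 on day 10 and -0.71 on day 50. The shaved array was the lowest of the 8, and day 4 and day 50 differed by 0.02, less than the technical spread. The gene was 2.74-fold higher than in shaved skin at 12 hours, 4.43-fold on day 4 and 4.49-fold on day 50, so its highest values were not limited to the array on which Ucp1 was high. With normexp, the 12 hours and day 1 differences were under 2-fold and that of day 50 was 1.59. Against the median of the other 7 arrays, the day 50 difference was 1.28.

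Slc27a2, a very long-chain acyl-CoA synthetase that imports and activates fatty acids, followed the day 50 pattern of Ucp1 at a smaller size. Its level was -3.33 in shaved skin, -4.11 at 12 hours, -3.96 on day 1, -3.44 on day 2, -4.07 on day 4, -3.92 on day 6, -3.65 on day 10 and -0.43 on day 50. The day 50 array was 2.90, or 7.45-fold, above shaved skin, which was again the highest of the other 7. Those 7 spanned 0.78 in all. With normexp the day 50 difference was 2.08, and against the median of the other 7 arrays it was 3.48. The processed signal was 372 units on day 50 and 59.9 units in shaved skin, with 35.5 to 63.3 units on the other plucked arrays.

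Among the regulators, neither Ppargc1a, by its brighter probe, nor Prdm16 was 2-fold apart from the control at any time. Ppargc1a encodes PGC-1alpha, a coactivator that drives mitochondrial genes and Ucp1 and is also active in muscle. Its level was 0.93 in shaved skin, 0.87 at 12 hours, 0.84 on day 1, 0.89 on day 2, 0.41 on day 4, 1.30 on day 6, -0.07 on day 10 and 1.71 on day 50, a difference of 0.78 on day 50. The lowest was day 10, at a difference of -0.996 that fell just short of 2-fold and passed it, at -1.01, with median centring. A second, dimmer probe differed by 1.18 on day 50, which is past 2-fold, by 0.90 on day 6 and -0.65 on day 10, the same directions. At 12 hours, day 1 and day 2 it stood 0.20 to 0.65 above the control while the brighter probe lay 0.03 to 0.08 below it, so the direction there is not settled.

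Prdm16, a zinc finger protein that commits precursors to brown and beige fat, stayed within 0.69 on all 8 arrays. Its level was -2.65 in shaved skin, -2.15 at 12 hours, -2.08 on day 1, -2.06 on day 2, -2.67 on day 4, -2.42 on day 6, -2.36 on day 10 and -1.98 on day 50. The day 50 value was the highest, at a difference of 0.67. The values at 12 hours, day 1 and day 2 were within 0.17 of the day 50 value, which is about the spread between probes of a gene.

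Zic1 and Lhx8 are transcription factors that mark classical brown fat in mice and not beige fat. Zic1 was at 1.496 in shaved skin, 1.11 at 12 hours, 1.67 on day 1, 1.88 on day 2, 1.73 on day 4, 1.65 on day 6, 2.25 on day 10 and 1.67 on day 50. Its day 50 difference was 0.18, and 0.24 with a second probe, and its highest value was on day 10. Lhx8 was at -0.24 in shaved skin, -1.10 at 12 hours, -0.29 on day 1, 0.16 on day 2, -1.29 on day 4, -0.26 on day 6, -0.07 on day 10 and -0.29 on day 50. It differed by -0.05 on day 50, and its day 4 difference of -1.05 was the only one past 2-fold, and fell short of it with median centring or normexp. Both lineage markers on day 50 thus lay among their other arrays, on the array where Ucp1, Cidea and Slc27a2 were highest. Both were well above background on all 8 arrays, including those where Ucp1 was not. Which cells gave the Zic1 and Lhx8 signal was not tested.

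Cox7a1 and Cox8b are subunits of cytochrome c oxidase in the forms found in heart, skeletal muscle and brown fat. Cox7a1 was at 6.00 in shaved skin, 5.95 at 12 hours, 6.28 on day 1, 6.16 on day 2, 5.74 on day 4, 5.99 on day 6, 5.82 on day 10 and 7.11 on day 50. Cox8b was at 6.65 in shaved skin, 6.63 at 12 hours, 6.83 on day 1, 6.87 on day 2, 6.49 on day 4, 6.52 on day 6, 6.43 on day 10 and 7.63 on day 50. Both were bright on every array and highest on day 50, where they exceeded the next array by 0.84 and 0.76. The differences from shaved skin on day 50, 1.11 and 0.98, correspond to 2.16-fold and 1.97-fold. With quantile scaling the Cox7a1 difference was 0.96, and with median centring both genes passed 2-fold.

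The median of skeletal muscle markers lay near this pair at all times, and so did that of respiratory chain genes. The median of 20 muscle markers differed from shaved skin by -0.09 at 12 hours, 0.16 on day 1, 0.09 on day 2, -0.15 on day 4, -0.21 on day 6, -0.17 on day 10 and 0.82 on day 50. Cox7a1 stayed between 0.12 below and 0.29 above that median at the 7 times, and Cox8b between 0.05 below and 0.16 above. Against the median of 28 respiratory chain genes, Cox7a1 ran from -0.23 to 0.35 and Cox8b from -0.12 to 0.22, so the nearness was not particular to muscle markers. All 20 muscle markers were above shaved skin on day 50 and 4 were at least 2-fold higher. These were the myosins Myh7 at 1.34 and Myh2 at 1.04, the actin crosslinker Actn3 at 1.27 and nebulin, Neb, at 1.03. Of the 20, 2 exceeded Cox7a1 and 5 exceeded Cox8b. Slow-fibre markers varied more widely than the median. The myosin Myh7 was at -2.80 at 12 hours, 1.79 on day 1, -3.26 on day 4 and -2.31 on day 6, and the troponin Tnnt1 at -0.92, 0.82, -1.31 and -1.37 at those times, while Cox7a1 stayed within 0.28 of shaved skin before day 50. What part muscle had in the Cox7a1 and Cox8b values was not tested.

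**Figure D2:**
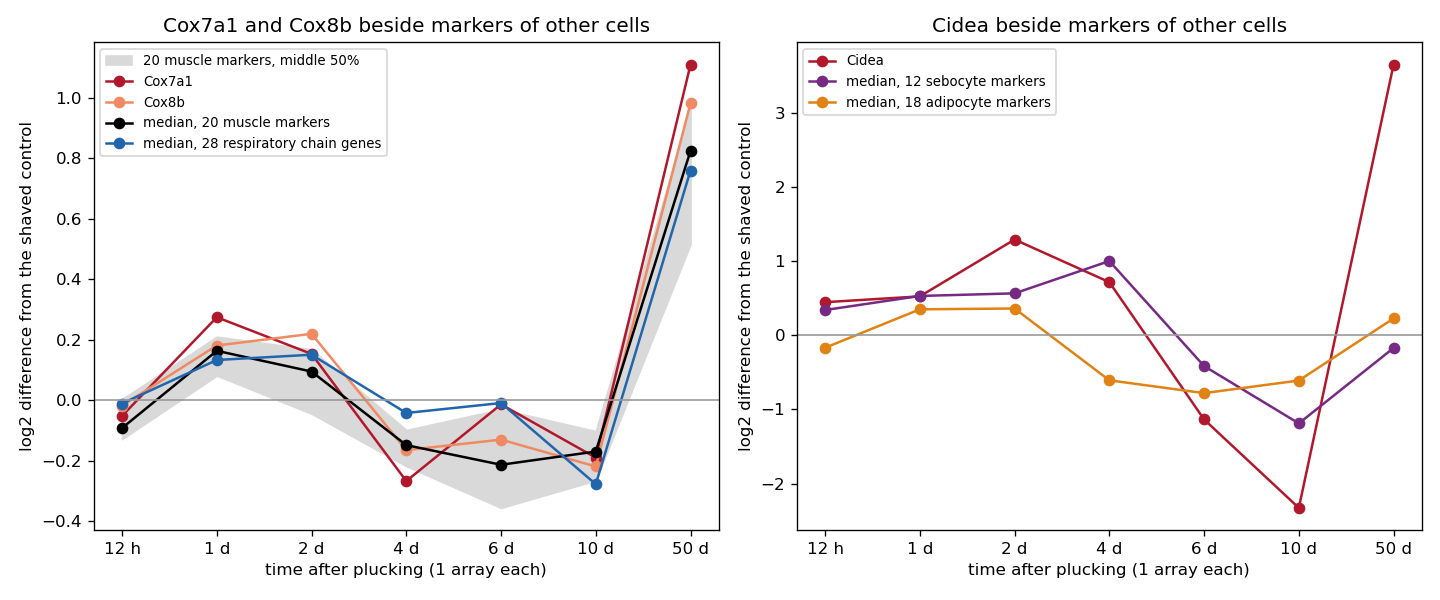
Difference from the shaved control, in log2, at each of the 7 times after plucking, 1 array a time, equally spaced. Cox7a1 and Cox8b are drawn beside the medians of muscle markers, with the middle 50% of markers shaded, and of respiratory chain genes, and Cidea beside the medians of sebocyte and adipocyte markers. Cox7a1 and Cox8b run within 0.29 of the muscle median and within 0.35 of the respiratory chain median. Cidea minus the sebocyte median is 0.73 on day 2, -1.14 on day 10 and 3.82 on day 50.

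The wider respiratory chain was also higher on day 50. All 28 subunits listed were above shaved skin, with a median of 0.76 and none at least 2-fold, and Cox7a1 exceeded that median by 0.35 and Cox8b by 0.22. The largest difference was 0.94, in the complex I subunit Ndufs1. The ubiquitous counterparts of the pair were less far from the control, Cox7a2 at 0.54 and Cox8a at 0.25, while Cox6a2, another heart and muscle form, was at 0.81 and its ubiquitous counterpart Cox6a1 at 0.12.

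Paralogues of the genes treated as fat-specific were measured on the same arrays, and the values given are day 50 differences from shaved skin. The uncoupling protein genes Ucp2 and Ucp3 were 1.40 and 1.29 below shaved skin, on the array where Ucp1 was 8.42 above it. The other lipid droplet genes of the CIDE family, Cidec and Cideb, were at -0.21 and -0.18. The fatty acid transporters Slc27a1 and Slc27a4 were at -0.51 and 0.18, and the deiodinases Dio1 and Dio3 at 0.22 and -0.63. Ppargc1b, the close relative of Ppargc1a, was at 0.96, beside 0.78 for Ppargc1a itself, with Zic4 at -0.35 and Lhx6 at 0.36. The list of 17 paralogues measured includes the relatives of Cox7a1 and Cox8b. Of the 17, 2 were at least 2-fold lower, Ucp2 and Ucp3, and none higher, with a median of 0.12. Over all genes measured on day 50, 2.71% were at least 2-fold higher and 4.4% lower, shares that apply to each list below too.

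Other genes of the thermogenic programme were mixed on day 50. Of 27 measured, 7 were at least 2-fold higher and 4 lower, and the median was 0.37. The higher ones included the acyl-CoA thioesterase Acot11 at 2.12, the fatty acid elongase Elovl3 at 1.76 and the orphan nuclear receptor Esrrg at 1.70. Acot11 lay below shaved skin at all earlier times, by 0.14 to 0.72, whereas Elovl3, which sebaceous glands also express, was already 1.55 to 2.13 higher from 12 hours to day 6. The lower ones were Plac8 at -1.46, Ucp2 at -1.40, Ucp3 at -1.29 and the transcription factor Irf4 at -1.09. Plac8 was also 0.63 to 1.91 lower than in shaved skin at every earlier time. The median of macrophage markers on day 50 was -1.08, and what part other cells had in these lower values was not tested. The main receptor through which noradrenaline acts on mouse fat cells, Adrb3, was at 0.37 on day 50 and at -1.73 at 12 hours.

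The lists of brown lineage markers and of beige fat markers gave no common direction on day 50. Of 11 brown lineage markers measured, 1 was higher, Pdk4 at 1.96, and 1 lower, Epsti1 at -1.06, with a median of 0.31. Pdk4, a kinase that restrains glucose oxidation in many tissues, was 1.14 to 2.41 above shaved skin at every earlier time too. Of 12 beige markers, 1 was higher, Tbx1 at 1.46, and 3 lower, Tmem26 at -1.64, Ear2 at -1.16 and Cd40 at -1.05, with a median of -0.27. Tbx1 reached 3.30 on day 4, above its day 50 value. Epsti1 was 0.57 to 1.88 lower than in shaved skin at every earlier time too. Ear2 was 0.53 to 1.79 lower from 12 hours to day 6 and at 0.03 on day 10. What part other cells had in the values of these 2 lists was not tested.

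Lipid genes went further from the control than adipocyte markers on day 50. Of 20 fatty acid and triglyceride synthesis genes, 7 were at least 2-fold higher and none lower, with a median of 0.95. They were led by the elongase Elovl6 at 2.37 and the acetyl-CoA synthetase Acss2 at 1.97. ATP citrate lyase, Acly, followed at 1.86 and malic enzyme, Me1, at 1.71. Elovl6 was already 1.36 to 2.04 higher from day 2 to day 6, and Acly was at 1.07 on day 6. Of 23 fatty acid oxidation and uptake genes, 21 were above shaved skin with a median of 0.49, Acadm alone at least 2-fold higher at 1.03, and Cpt1a, the non-muscle carnitine palmitoyltransferase, lower at -1.31. Creatine and calcium cycling, a heat source that does not need UCP1, had 2 of 8 genes at least 2-fold higher, the mitochondrial creatine kinase Ckmt2 at 1.09, which muscle also makes, and the creatine transporter Slc6a8 at 1.07. Of 18 genes of thyroid hormone and adrenergic input, 3 were higher, the phosphodiesterase Pde4d at 1.35, the noradrenaline-making enzyme Dbh at 1.22 and Vegfa at 1.05, with a median of 0.21.

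Cell type markers on the same array differed from shaved skin as well. Of 18 mature adipocyte markers 1 was at least 2-fold higher, Lep at 1.07, and their median was 0.23, beside 0.14 for white fat markers. Hair shaft and root sheath markers were at least 2-fold higher in 9 of 12 cases, with a median of 2.18. Their median had been further from shaved skin earlier, at 6.46 on day 4, 7.94 on day 6 and 6.92 on day 10. Macrophage markers were at least 2-fold lower in 6 of 10 cases, with a median of -1.08, and the median of fibroblast markers was -0.65. What part these cells had in the brown fat gene values was not tested.

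**Figure D3:**
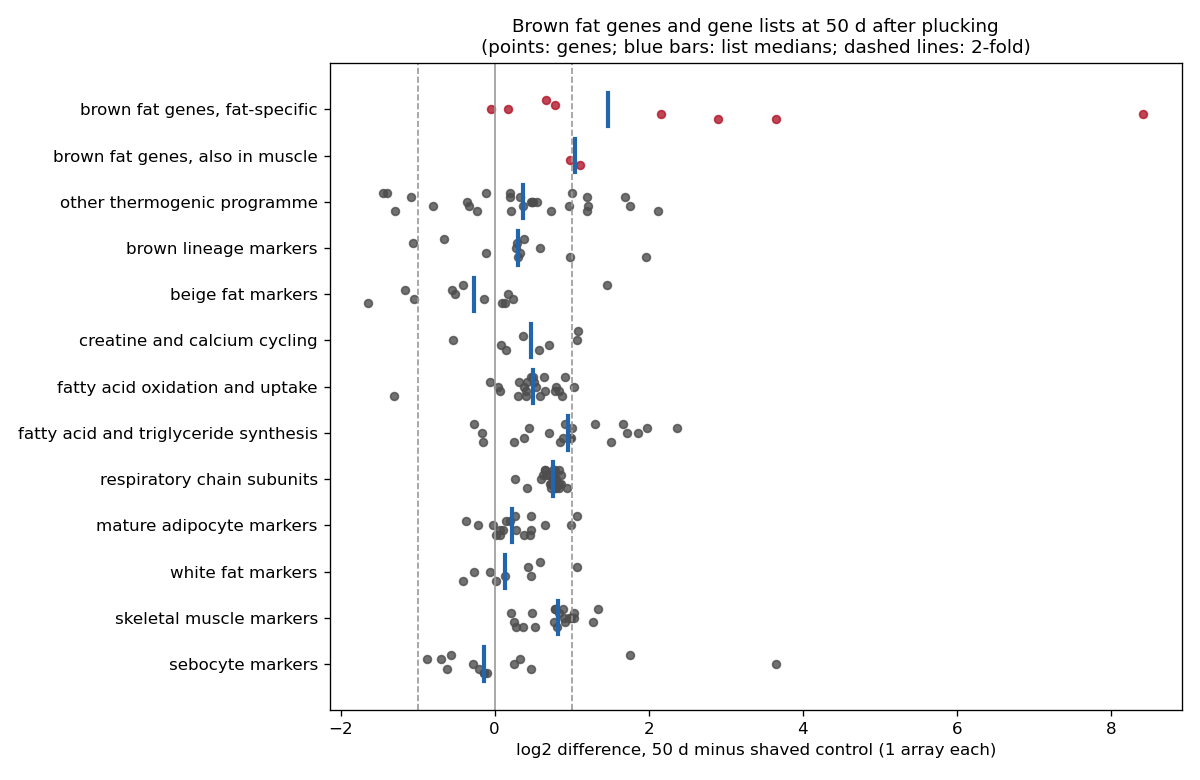
Difference of day 50 from the shaved control, in log2, for the brown fat genes and for lists of other genes, 1 point a gene and a bar at each list's median. The solid line at 0 is the shaved control and dashed lines mark 2-fold; the sebocyte list includes Cidea and Elovl3. Ucp1 at 8.42 lies apart from every list drawn, and all 28 respiratory chain subunits and all 20 muscle markers lie above 0.

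The genes whose pattern over the 8 arrays was most like that of Ucp1 were looked for by Pearson's r among 7047 genes whose levels spanned at least 1. The 10 nearest were Dnajc27 and Dhrs7c at 0.99, Ctbs, Taf9b, Fam131a and Metrn at 0.98, and Ak1, Acot11, Kcnab1 and Slc27a2 at 0.97. Their day 50 differences ran from 0.66 in Metrn and Kcnab1 to 2.90 in Slc27a2, far below the 8.42 of Ucp1. With 1 array far above the rest, r reads mostly that array. Without day 50, the r of these 10 genes ran from 0.60 to 0.92, and 1 of the 10 nearest genes over the other 7 arrays was among them. None of the 10 was among the 10 nearest by Spearman's rho, though their own rho with Ucp1 ran from 0.69 to 0.88. Within the set, r with Ucp1 was 0.86 for Cox7a1, 0.85 for Cox8b, 0.70 for Ppargc1a, 0.65 for Cidea, 0.32 for Dio2, 0.21 for Lhx8 and -0.02 for Zic1, and Prdm16 was below the span required. Without day 50 these values were -0.14 for Cox7a1, -0.25 for Cox8b, 0.36 for Ppargc1a, -0.36 for Cidea, -0.79 for Dio2, 0.39 for Lhx8 and -0.03 for Zic1, so for Cox7a1, Cox8b, Cidea and Dio2 the sign of r rests on the day 50 array.

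**Figure D4:**
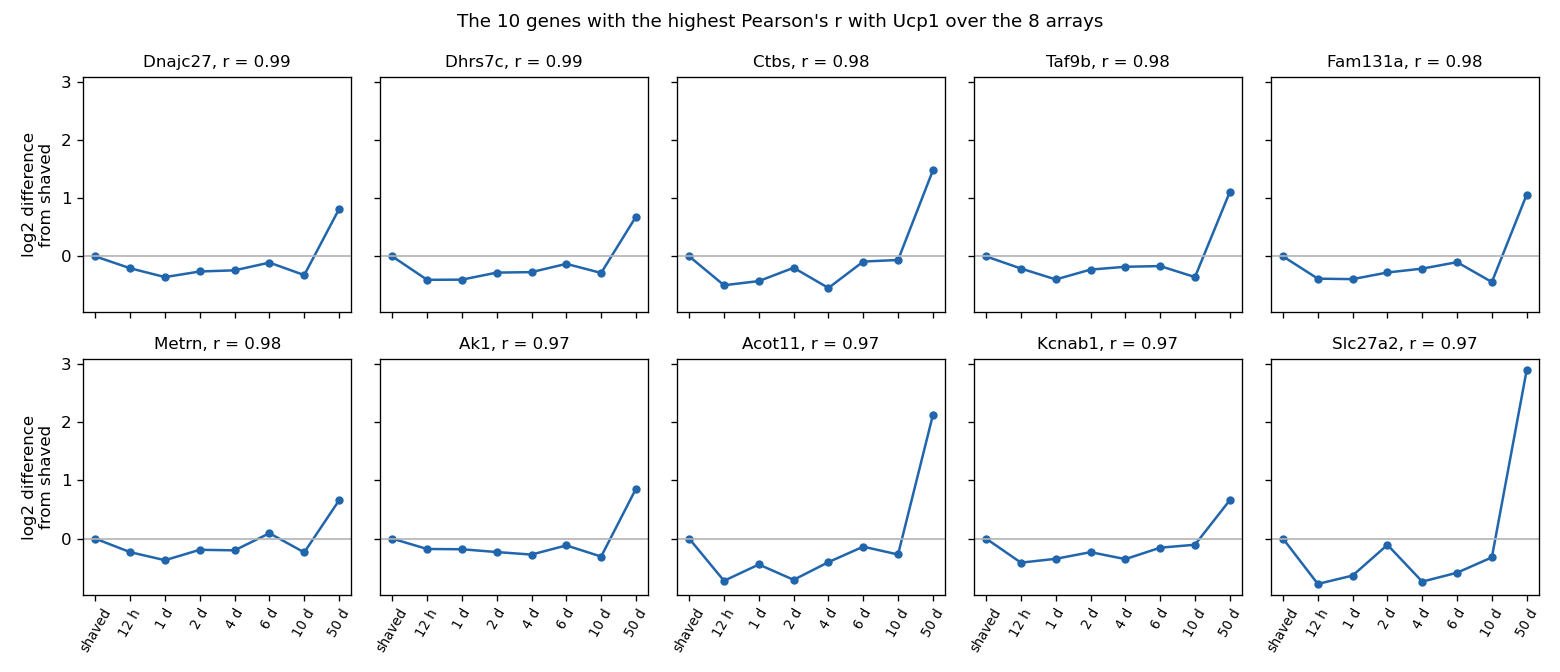
Levels over the 8 arrays of the 10 genes with the highest Pearson r with Ucp1, each relative to its own level in shaved skin, in log2. Each panel is 1 gene, each point 1 array and the times are equally spaced. All of them are highest on day 50, by 0.66 to 2.90 over shaved skin.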

How the data were processed

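RNA from 8 samples, 1 a group, was measured on 1-colour Cy3 arrays, per the labels' protocols. Each deposited file gives spot intensity from Agilent Feature Extraction 10.5.1.1, with background subtracted, detrended within the array, and no scaling between arrays, per the file headers. Probe positions are on mm9 per the file headers, and no mm9 annotation was used.

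Control spots and flagged spots were left out, spots of a probe were averaged, and 55668 of 55681 probes were used. Values are log2 of that deposited intensity minus the array's 75th percentile. Of the spots, 72.9% to 81.1% were well above background, none was saturated, and the 75th percentile lay between 503 and 955 units. The brightest probe stood for a gene. Where the dimmer array was not well above background, a gene has a bound, taken against the higher of its own signal and the dimmest signal that was well above background there. With 1 array a group there is no test and no p-value, and the number of arrays limits the precision.

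The genes of the set and the gene lists, from textbook knowledge, were chosen with earlier results of these data known. Named were all 10 genes, from each list up to 4 with the largest day 50 difference, for sebocyte and muscle markers also at other times, the measured paralogues, and the 10 genes most like Ucp1; other values are named to set beside these. Lists share some genes. The counting code was checked on simulated data with planted differences, which says nothing about the error of these arrays. Python 3.11.15, numpy 2.4.6, pandas 2.3.3, and, for the alternatives, limma 3.58.1 in R 4.3.3 were used. Alternatives were quantile scaling, centring on the median, normexp, the mean over probes, other filters on background, 1.5-fold and 4-fold thresholds, and the median of the other 7 arrays in place of the control on day 50.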

Additional observations from a re-analysis of the deposited data

How the results depend on the processing

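No paired analysis was possible because each group had 1 array, and for the same reason no array of a group could be left out. No counted gene turned its direction under any alternative run. Of 70 gene and time values, centring on the median moved 0 by more than the technical spread, quantile scaling 3, the mean over probes 8 and normexp with an offset of 50 moved 19. The median of the other 7 arrays as the reference moved 5 of 10 day 50 values, among them Dio2 to 1.28 and Cidea to 3.20. Under normexp the Ucp1 difference on day 50 was 7.39, and against the median of the other 7 arrays it was 10.16. The count of genes at least 2-fold apart was 5 on day 50. It was 4 with quantile scaling, without Cox7a1, and 6 with median centring, with Cox8b. A 1.5-fold threshold gave 4 genes at 12 hours, 3 on day 1, 3 on day 2 and 5 on day 4. It gave 2 on day 6, 4 on day 10 and 8 on day 50. A 4-fold threshold gave 1 at 12 hours, 1 on day 1, 0 on day 2 and 2 on day 4. It gave 0 on day 6, 1 on day 10 and 4 on day 50. The shares of all genes were taken at 2-fold in the main processing only, so the counts under alternatives have no share to be judged by. Normexp gave 1 at 12 hours, where Dio2 was lost, 0 on day 1, 1 on day 2 and 1 on day 10, the last 2 without Ucp1. Requiring both arrays well above background gave 1 on day 1 and 1 on day 10, since Ucp1 was too dim there, and 2 on day 4, where it lost Ucp1 too. Median centring added Ppargc1a on day 10, for a count of 3. The day 4 call of Lhx8 was lost with median centring and normexp. Against all probes, quantile scaling shifted the median difference by 0.16 on day 4 and normexp by -0.19 on day 6. Of the 10 genes most like Ucp1, 0 were shared by Spearman's rho and 1 without the day 50 array. Small differences of uncounted values, in Ppargc1a, Prdm16, Lhx8, Cox7a1 and Cox8b at times before day 10, changed sign under some alternatives. Dim spots limit Ucp1 before day 50, and with 1 array a time differences between mice could not be measured.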
